A study of Homo sapiens with 6 samples.

Results

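Long intergenic non-coding transcripts with a LINC number were followed in nascent RNA of a small cell lung cancer line after depletion of SFPQ. The members were the rows of the deposited table with the biotype lncRNA and a symbol of LINC followed by digits, with LINC01138 left out, and with a value of at least 10 normalized reads in at least 2 of the 6 libraries. Of 510 rows with such a symbol, 491 had the biotype lncRNA and 490 were considered, of which 34 were below the filter and 456 were members. These were 2.09% of the 21773 features tested and came from 25827 features in all. In all 6 libraries the filter was passed by 384 members, while 26 passed only through siSFPQ libraries and 1 only through siCtrl libraries. The members nearest to the threshold were LINC00654, LINC00840 and LINC00543, whose second highest values were 10.1, 10.4 and 10.8, and the nearest rows outside it were LINC01488, LINC01366 and LINC02556, with 9.97, 9.97 and 9.11. The cells were SBC-3, labelled as small cell lung cancer of genotype WT in every group. They were reverse transfected with 10 nM of a control siRNA (siCtrl), of siSFPQ-2 or of siSFPQ-3, both directed against SFPQ, and were harvested and permeabilized after 72 h. Each group had 2 PRO-seq libraries. Whether the libraries of a group are from separate cultures is not in the labels, and p-values therefore cover the spread among these samples alone, which may be technical.

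PRO-seq marks RNA polymerases that are engaged in transcription, so its reads show where and how much RNA is being made, not how much accumulates. Long intergenic non-coding RNAs are transcribed by RNA polymerase II from loci between protein-coding genes. Some act on neighbouring genes in cis, some are made from enhancers or share a promoter region with a coding gene on the other strand, some are precursors of microRNAs, and for many no function is known. SFPQ is a nuclear RNA- and DNA-binding protein of paraspeckles with roles in transcription and in RNA processing. The study asked how loss of SFPQ alters the transcription of primary microRNA transcripts. Among the 313 members with a known strand 1 such host was found, and members without a strand were not searched.

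The LINC loci with the largest changes had unlike start regions. The windows below reach from 250 bases before to 50 bases after the outermost start in RefSeq (GRCh38.p14, the assembly of hg38), which held such a window for 313 of the 456 members. Capitals mark matches on either strand to 8 short motifs: TATAAA, bound by the TATA-binding protein, CCAAT, bound by NF-Y, GGGCGG, bound by Sp factors, CACGTG, bound by E-box proteins such as MYC, TGANTCA, bound by AP-1, TGACGTCA, bound by CREB, TGTGGT, bound by RUNX factors, and GGAATG, bound by TEAD factors. None of these motifs contains another. Among the 12 largest rises and 12 largest falls described further on, 8 rises and 10 falls had a window. Shown are the largest 2 rises with a window, LINC02552 (chr11:104609253-104609552, minus strand) and LINC01357 (chr1:112849607-112849906, plus strand), and LINC01895 (chr18:3350510-3350809, minus strand), the rise that held a TGANTCA match.
LINC02552: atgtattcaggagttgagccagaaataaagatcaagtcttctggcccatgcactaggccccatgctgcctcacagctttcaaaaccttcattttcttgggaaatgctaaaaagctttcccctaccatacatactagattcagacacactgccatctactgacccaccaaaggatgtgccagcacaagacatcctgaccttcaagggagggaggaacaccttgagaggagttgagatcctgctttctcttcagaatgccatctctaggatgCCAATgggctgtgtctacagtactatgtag
LINC01357: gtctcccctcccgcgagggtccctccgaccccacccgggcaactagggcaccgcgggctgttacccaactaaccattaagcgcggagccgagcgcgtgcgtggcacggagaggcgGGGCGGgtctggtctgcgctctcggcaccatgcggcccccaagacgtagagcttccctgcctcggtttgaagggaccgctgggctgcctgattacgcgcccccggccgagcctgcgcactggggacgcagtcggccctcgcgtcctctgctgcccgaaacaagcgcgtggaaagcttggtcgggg
LINC01895: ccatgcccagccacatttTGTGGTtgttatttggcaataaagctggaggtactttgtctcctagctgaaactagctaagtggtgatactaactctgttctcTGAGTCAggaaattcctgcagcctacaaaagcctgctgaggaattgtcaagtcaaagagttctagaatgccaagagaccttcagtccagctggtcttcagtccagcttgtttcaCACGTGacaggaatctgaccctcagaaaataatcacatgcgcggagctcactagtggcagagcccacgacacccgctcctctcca
LINC02552 had 0 CG pairs in its window and LINC01357 had 34. The falls shown are LINC01994 (chr3:182486313-182486612, minus strand) and LINC01926 (chr18:58813630-58813929, plus strand), the largest 2 with a window, and LINC00482 (chr17:81309199-81309498, minus strand), the fall with the most GGGCGG matches. They are followed by LINC00461 (chr5:88690992-88691291, minus strand), the member with the most reads.
LINC01994: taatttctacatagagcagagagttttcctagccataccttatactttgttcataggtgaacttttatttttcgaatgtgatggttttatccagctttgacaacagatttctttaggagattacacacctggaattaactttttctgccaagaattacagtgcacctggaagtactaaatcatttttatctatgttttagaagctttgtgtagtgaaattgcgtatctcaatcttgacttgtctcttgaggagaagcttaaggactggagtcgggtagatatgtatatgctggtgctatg
LINC01926: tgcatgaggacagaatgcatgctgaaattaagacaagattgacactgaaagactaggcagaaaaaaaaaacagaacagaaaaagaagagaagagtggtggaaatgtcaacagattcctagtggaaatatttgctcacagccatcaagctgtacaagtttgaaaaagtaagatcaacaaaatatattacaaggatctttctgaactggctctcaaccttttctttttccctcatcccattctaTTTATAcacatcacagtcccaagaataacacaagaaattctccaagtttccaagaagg
LINC00482: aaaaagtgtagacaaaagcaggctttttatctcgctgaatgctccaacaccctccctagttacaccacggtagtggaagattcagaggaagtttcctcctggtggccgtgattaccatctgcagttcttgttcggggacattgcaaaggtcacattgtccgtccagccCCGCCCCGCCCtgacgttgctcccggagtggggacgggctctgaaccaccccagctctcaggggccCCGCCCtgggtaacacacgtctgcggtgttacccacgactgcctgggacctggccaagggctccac
LINC00461: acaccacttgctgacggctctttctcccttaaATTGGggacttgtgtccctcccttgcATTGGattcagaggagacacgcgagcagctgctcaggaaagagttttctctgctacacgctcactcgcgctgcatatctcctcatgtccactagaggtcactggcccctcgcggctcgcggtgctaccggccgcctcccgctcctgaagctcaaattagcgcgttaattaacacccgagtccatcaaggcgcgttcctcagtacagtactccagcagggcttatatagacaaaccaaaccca
LINC01994, LINC01926, LINC00482 and LINC00461 held 3, 0, 14 and 18 CG pairs, and LINC01994 matched none of the 8 motifs.

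LINC00461 is named MIR9-2HG in RefSeq, because it contains MIR9-2, one of the genes that make miR-9, a microRNA of the nervous system. It was the 1 member with a known strand and a microRNA gene inside its span on the same strand. Both mature strands are printed with the seed, bases 2 to 8, in capitals.
hsa-miR-9-5p: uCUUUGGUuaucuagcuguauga
hsa-miR-9-3p: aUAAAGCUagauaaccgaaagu
The 5p strand lies at chr5:88666902-88666924 and the 3p strand at chr5:88666866-88666887, both on the minus strand within the span of LINC00461.

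The libraries held 12072813 to 18475158 reads, and 1 read was worth 0.797 to 1.11 normalized reads. Of the markers for small cell lung cancer, YAP1 had 3312 and 2856 normalized reads in siCtrl and 4634 to 5431 in siSFPQ libraries, POU2F3 119 and 129 against 73.9 to 90.8, DLL3 124 and 129.6 against 57.7 to 85.6 and NEUROD1 27.1 and 31.0 against 11.1 to 25.8. SYP, with 283 and 226 against 187 to 412, and CHGA, with 3.19 and 4.43 against 0 to 5.54, overlapped between the groups. INSM1, NCAM1 and UCHL1 were not analysed here. Of 9 markers of other cell types, COL1A1 (fibroblasts) had 227 and 202 in siCtrl and 370.0 to 551 in siSFPQ libraries, CD79A (B cells) had 6.38 and 19.9 against 25.8 to 42.5, and the other 7 were not analysed here. YAP1, POU2F3, DLL3, NEUROD1, COL1A1 and CD79A moved with the groups, and their part in the results was not tested. In bulk libraries such as these, fewer cells of a type and less RNA made per cell cannot be told apart. SFPQ itself had 2294 and 2435 (siCtrl), 1825 and 1972 (siSFPQ-2), and 1922 and 2466 (siSFPQ-3) normalized nascent reads. Nascent reads do not check a knockdown by siRNA, which acts on the finished RNA.

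LINC transcripts were changed in both directions, and more of them passed the test than among all features. With both siRNAs against siCtrl, 120 members were higher (26.3%, where 24.8% of all 21773 features were called higher) and 145 were lower (31.8%, against 23.2%). In either direction 58.1% of members were called, against 48% of all features. The quartiles of their log2 fold changes were -0.63 and 0.60, and those of all features -0.38 and 0.40, with medians of -0.04 and -0.02. Of the 120 higher members 20 had passed the filter only through siSFPQ libraries, and of the other 430 members 23.3% were higher. A change of at least 1.5-fold was found for 103 of the 120 and 110 of the 145, and for 3624 of the 5400 higher and 2879 of the 5044 lower features. The 4 siSFPQ libraries lay above both siCtrl libraries for 140 members, below both for 169 and overlapped them for 147, where 30.3% of all features lay above and 31% below. Among all 5114 long non-coding RNAs tested, 19.9% were higher and 26.7% lower, and among 14020 protein-coding features 28.4% and 23%. Of 601 named antisense long non-coding RNAs, 17.0% were higher and 34.1% lower, and 51.1% were called in either direction. A large share of falls was thus not particular to LINC members. These tests were made with limma on log2(value + 1) over all features with Benjamini-Hochberg adjustment, and a fold change on that scale understates that of low members. The counts depended on the controls, since fewer members were called lower, and fewer higher, without siCtrl replicate 1 or without siCtrl replicate 2. Such a fit leaves 1 siCtrl library, and the counts over all features were not set beside it. Of the 145, 64 were called without each of the 6 libraries in turn, and of the 120 higher members 76 were. No member was called in opposite directions under these settings.

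**Figure D1:**
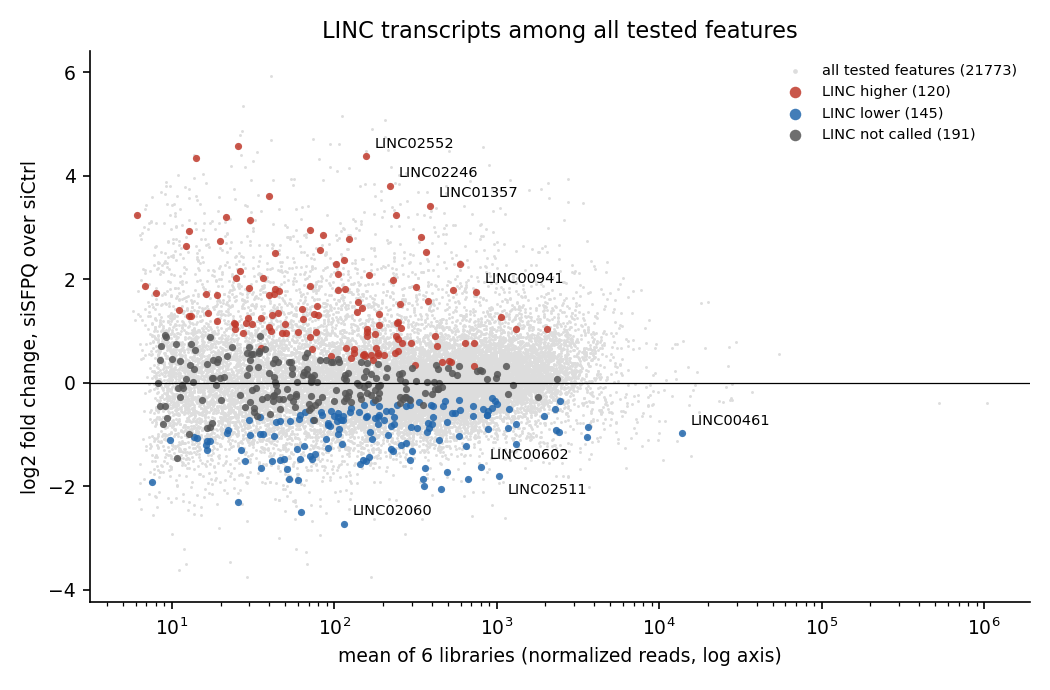
Log2 fold change of both siRNAs over siCtrl (vertical axis) against the mean of the 6 libraries in normalized reads (horizontal log axis) for 21773 features in grey and the 456 LINC members in colour, by call. The 120 higher and 145 lower members spread over the whole range of values, and LINC00461 stands alone at the right.

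The signal of the members lay mostly in few loci. LINC00461 alone held 13.9% of the members' summed signal in siCtrl and 8.95% in siSFPQ libraries. The 10 largest members held 34.2% and 25.2%, and the 50 largest 63.2% and 51.6%. Summed over all members, normalized reads were 149354 and 145294 (siCtrl), 126238 and 114708 (siSFPQ-2), and 125588 and 108071 (siSFPQ-3), so that every siSFPQ library was below both siCtrl libraries. Without LINC00461 the sums were, in that order, 128692 and 125015, 113126 and 103756, and 114367 and 100889, and the groups still did not overlap. The median member, in contrast, had 103 and 98.0 normalized reads in siCtrl and 93.7 to 113 in siSFPQ libraries.

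The spread between libraries of an siSFPQ group was uneven. Of the 145 lower members, the library numbered 2 was below the library numbered 1 for 126 (siSFPQ-2), 119 (siSFPQ-3) and 78 (siCtrl). The gap was over 1.5-fold for 33, 45 and 5 of them in that order. Of the 120 higher members, the second library was lower for 42, 52 and 64.

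Rises were led by loci with little nascent RNA in control cells, which a ranking by fold change favours, as it favours high controls among falls. The 12 largest rises among members of at least median level (106 normalized reads over the 6 libraries) had siCtrl means of 10.0 to 166, and all 4 siSFPQ libraries lay above both siCtrl libraries by the rule that named them. LINC02552 (chr11:104568489-104609302, minus strand) had 11.2 and 8.86 normalized reads under siCtrl, 183 and 219 under siSFPQ-2, and 270.0 and 249 under siSFPQ-3. It rose from 10.0 ± 1.62 (SD, n = 2) to 230.3 ± 37.9 (SD, n = 4), or 20.9-fold (log2 fold change 4.39, SE 0.19, adjusted p = 1.07e-07). No protein-coding gene lay within 200 kb. The nearest tested one was CASP4, an inflammatory caspase 334 kb away, with 55.0 and 45.4 (siCtrl), 713 and 623 (siSFPQ-2), and 730.3 and 779 (siSFPQ-3) normalized reads. It rose by 3.80 on the log2 scale (adjusted p = 3.35e-08).

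LINC02246 (chr21:14816838-14918668), named ASMER1 in RefSeq and known from adipocytes, had 26.3 and 17.7 normalized reads under siCtrl, 307 and 244 under siSFPQ-2, and 378 and 354 under siSFPQ-3. Its rise (log2 fold change 3.81, SE 0.19, adjusted p = 2.20e-07) stood 42.6 kb from NRIP1, a co-repressor of nuclear receptors, which had 1337 and 1247 (siCtrl), 5585 and 7225 (siSFPQ-2), and 6367 and 7077 (siSFPQ-3) and rose too (log2 fold change 2.34, adjusted p = 3.31e-07). LINC01357 (chr1:112849857-112877871, plus strand) had 43.8 and 58.7 normalized reads under siCtrl, 595 and 617 under siSFPQ-2, and 561 and 461 under siSFPQ-3 (log2 fold change 3.43, SE 0.15, adjusted p = 1.15e-07). Its lowest siSFPQ library stood at 461 and its higher control at 58.7. The nearest gene, SLC16A1, which encodes a lactate transporter, rose less, by 0.71 on the log2 scale (adjusted p = 3.52e-04).

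LINC01934 (chr2:181123837-181399553, plus strand) spans 276 kb and had 38.3 and 32.1 normalized reads under siCtrl, 300.3 and 314 under siSFPQ-2, and 389 and 375 under siSFPQ-3 (log2 fold change 3.25, SE 0.14, adjusted p = 1.16e-07). Its nearest gene was not called. ITGA4, an integrin subunit, had 250.2 and 201 (siCtrl), 186 and 98.6 (siSFPQ-2), and 236 and 162 (siSFPQ-3), and its log2 fold change of -0.46 did not pass the test (adjusted p = 0.144). LINC02150 (chr5:16373361-16441102, minus strand) had 70.9 and 63.1 normalized reads under siCtrl, 429 and 629 under siSFPQ-2, and 402 and 469 under siSFPQ-3 (log2 fold change 2.81, SE 0.16, adjusted p = 6.42e-07). LINC01895 (chr18:3347703-3350559, minus strand), with the TGANTCA match printed above, had 19.9 and 27.7 normalized reads under siCtrl, 109 and 158 under siSFPQ-2, and 181 and 248 under siSFPQ-3 (log2 fold change 2.78, SE 0.23, adjusted p = 6.57e-06). Its neighbour TGIF1, a homeobox repressor of TGF-beta responses 61.5 kb away, had 445 and 472 (siCtrl), 1726 and 1621 (siSFPQ-2), and 1740.3 and 1868 (siSFPQ-3) and rose by 1.92 (adjusted p = 1.88e-07).

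LINC02732 (chr11:110355114-110406908) had 86.9 and 82.0 normalized reads under siCtrl, 358 and 399 under siSFPQ-2, and 603 and 683 under siSFPQ-3. Both siSFPQ-3 libraries were above both siSFPQ-2 libraries, a difference that did not pass the test between the siRNAs (adjusted p = 0.0815). LINC00189 (chr21:29193494-29288205, plus strand) had 22.3 and 34.3 normalized reads under siCtrl, 92.7 and 123 under siSFPQ-2, and 175 and 241 under siSFPQ-3 and lies 10.7 kb from BACH1, a transcriptional repressor of antioxidant genes, which rose by 0.67 (adjusted p = 0.00142). LINC01397 (chr1:110082688-110109719, plus strand), the highest of these loci in controls, had 140.3 and 192 normalized reads under siCtrl, 807 and 984 under siSFPQ-2, and 741 and 733 under siSFPQ-3. Their log2 fold changes were 2.53, 2.38 and 2.30. The other 3 of the 12 were LINC01226 (2.07), LINC02006 (1.98) and LINC02798 (1.84). LINC02798 lies in a region with near-identical copies, beside SRGAP2C, so its reads may be split among copies. The adjusted p of all 12 was at most 2.23e-05. Of their nearest tested protein-coding genes 8 were higher, 4 were not called and none was lower. Among all protein-coding features tested, 28.4% were higher and 23% lower.

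**Figure D2:**
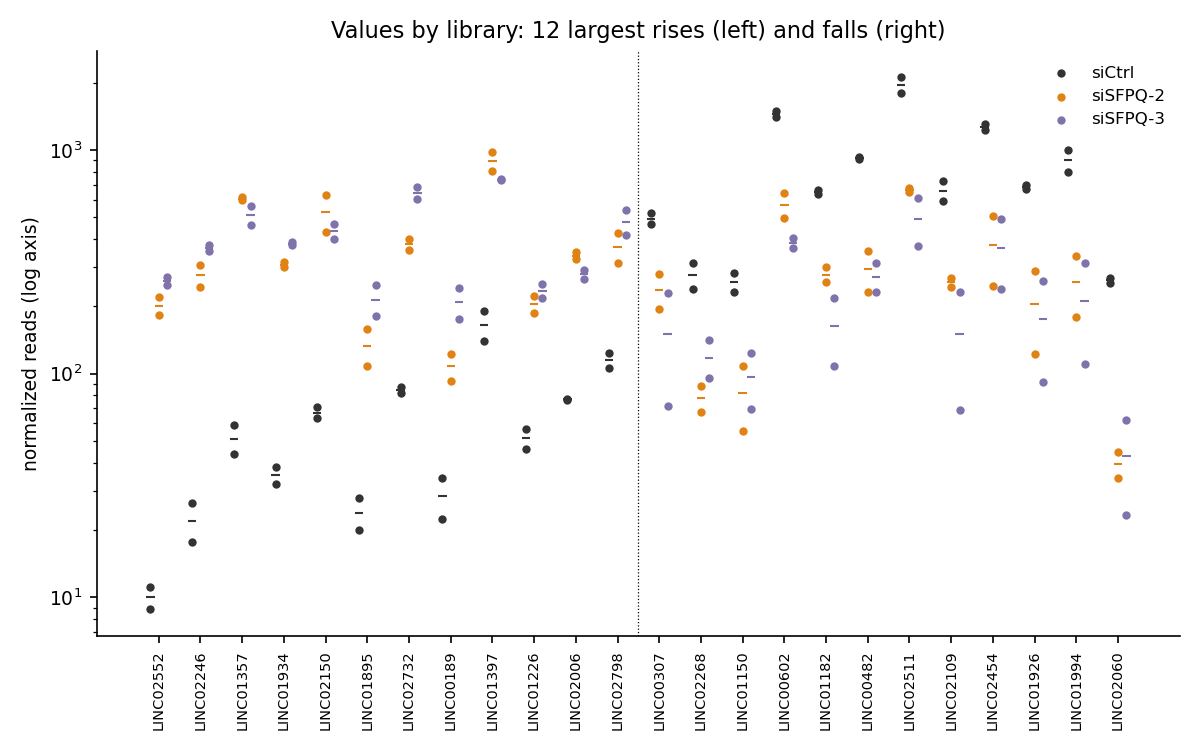
Normalized reads (log axis) in each of the 6 libraries for the 12 largest rises and, right of the dotted line, the 12 largest falls. Points are libraries and short bars the mean of the 2 libraries of a group, and siCtrl is set apart from both siSFPQ groups at each locus. The rule that named these loci required that gap.

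Several members were nearly silent in controls. The LINC members named here passed the filter only through siSFPQ libraries, so higher values there were already part of how they entered. LINC00973, studied in several tumours, was at 0 reads in both siCtrl libraries and had 13.4 and 29.9 (siSFPQ-2) and 11.8 and 29.4 (siSFPQ-3). Against a floor of 3 reads per library this was at least 7.39-fold higher. DCBLD2, a transmembrane receptor 12.9 kb away, had 1532 and 1284 (siCtrl), 4851 and 6029 (siSFPQ-2), and 6119.9 and 8368 (siSFPQ-3) and rose by 2.15 on the log2 scale. LINC02695 was the other member at 0 in both controls, and its siSFPQ mean of 9.17 ± 4.34 (SD, n = 4) was at least 3.21-fold higher. LINC01154, named GPR84-AS1 in RefSeq, had 1.59 and 0 (siCtrl), 27.6 and 47.6 (siSFPQ-2), and 32.3 and 45.6 (siSFPQ-3), and LINC02608 had 1.59 and 2.22 (siCtrl), 12.5 and 23.3 (siSFPQ-2), and 18.3 and 16.2 (siSFPQ-3). Their control values rest on at most 2 reads per library, so no fold is given. LINC01154 overlaps ITGA5, the fibronectin receptor subunit, which had 279 and 300.2 (siCtrl), 845 and 1201 (siSFPQ-2), and 694 and 1025 (siSFPQ-3) and rose by 1.67. Whether counting used strand was not given in the sources used here. Reads of such overlapping loci can therefore not be told apart.

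Falls were led by loci with more control signal. The 12 largest had siCtrl means of 257 to 1959 and an adjusted p of at most 0.00492. All 4 siSFPQ libraries lay below both siCtrl libraries by the rule that named them. LINC02060 (chr5:88408982-88439090) had 255 and 269 normalized reads under siCtrl, 44.6 and 34.3 under siSFPQ-2, and 62.4 and 23.3 under siSFPQ-3. It fell from 262 ± 10.0 (SD, n = 2) to 41.1 ± 16.6 (SD, n = 4) (log2 fold change -2.73, SE 0.32, adjusted p = 7.82e-05). It lies 99.2 kb from LINC00461, which fell too and is described below. The nearest tested coding gene, TMEM161B, a membrane protein gene 140.1 kb away, had 2720.1 and 2264 (siCtrl), 1413 and 1109.5 (siSFPQ-2), and 1306 and 904 (siSFPQ-3) and fell (-1.09, adjusted p = 2.68e-04). LINC02511 (chr4:136795902-137212799, minus strand) was the fall with the highest control level and spans 417 kb. It had 2114 and 1805 normalized reads under siCtrl, 674 and 652 under siSFPQ-2, and 613 and 371 under siSFPQ-3 (log2 fold change -1.80, SE 0.17, adjusted p = 1.65e-05). Its nearest gene, the protocadherin PCDH18 306 kb away, fell less (-0.42, adjusted p = 0.0136).

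LINC01994 (chr3:182446970-182486362, minus strand) had 1001 and 799.8 normalized reads under siCtrl, 336 and 179 under siSFPQ-2, and 312 and 110.4 under siSFPQ-3 (log2 fold change -2.06, SE 0.35, adjusted p = 7.86e-04). LINC01926 (chr18:58813880-58834364, plus strand) had 699.7 and 670.2 normalized reads under siCtrl, 287 and 123 under siSFPQ-2, and 260.3 and 92.2 under siSFPQ-3 (log2 fold change -2.0, SE 0.38, adjusted p = 0.00155). In both, the lowest siSFPQ library was below 0.5 times the highest, so that the size of the fall is less certain than its direction. The same held for LINC02060, LINC02454, LINC02109, LINC01150, LINC01182, LINC02268 and LINC00307. It did not hold for LINC02511, LINC00482 and LINC00602. ZNF532, a zinc finger gene 28.6 kb from LINC01926, had 14306 and 12326 (siCtrl), 7552 and 5933 (siSFPQ-2), and 6929 and 4529 (siSFPQ-3) and fell by 1.12 on the log2 scale. LINC02454 (chr12:65602869-65612987, plus strand) had 1312 and 1235 normalized reads under siCtrl, 509 and 246 under siSFPQ-2, and 490.5 and 238 under siSFPQ-3 (log2 fold change -1.87, SE 0.29, adjusted p = 4.93e-04). LINC00482 (chr17:81302824-81309248, minus strand) had 930.1 and 914 normalized reads under siCtrl, 354 and 233 under siSFPQ-2, and 312 and 232 under siSFPQ-3 (log2 fold change -1.73, SE 0.17, adjusted p = 2.43e-05).

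LINC00602 (chr6:165987551-165989615, plus strand) was a short and strongly transcribed locus that overlaps PDE10A, a cyclic nucleotide phosphodiesterase gene, in divergent orientation. It had 1403 and 1499 normalized reads under siCtrl, 496 and 641 under siSFPQ-2, and 364 and 405 under siSFPQ-3 (log2 fold change -1.64, SE 0.12, adjusted p = 2.67e-06), and all siSFPQ libraries were below 0.5 times either control. PDE10A had 27972 and 25777 (siCtrl), 24574 and 25431 (siSFPQ-2), and 20404 and 15574 (siSFPQ-3), and its log2 fold change of -0.35 did not pass the test (adjusted p = 0.137). LINC01150 (chr11:1896759-1908359, plus strand), which lies 4.50 kb from LSP1, an actin-binding protein gene of leukocytes, had 281 and 233 normalized reads under siCtrl, 109 and 55.4 under siSFPQ-2, and 124 and 69.9 under siSFPQ-3 (log2 fold change -1.58, SE 0.28, adjusted p = 0.00112). LSP1 fell too, from 688 ± 10.7 (SD, n = 2) to 216 ± 121 (SD, n = 4) (log2 fold change -1.85, SE 0.41, adjusted p = 0.00383). In both genes the library numbered 2 of each siRNA was the lower.

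LINC02109 (chr5:29143503-29172975) had 727 and 589 normalized reads under siCtrl, 267 and 245 under siSFPQ-2, and 232 and 68.9 under siSFPQ-3 (log2 fold change -1.86, SE 0.35, adjusted p = 0.00153). It was the fall whose nearest tested protein-coding gene was higher: CDH6, a cadherin gene 2021 kb away, had 22.3 and 27.7 (siCtrl), 109.6 and 146 (siSFPQ-2), and 244 and 259 (siSFPQ-3) (2.80, adjusted p = 1.67e-06). The rest were LINC01182 (-1.65), LINC02268 (-1.52) and LINC00307 (-1.50). LINC00307 had 520.4 and 467 (siCtrl), 279 and 195 (siSFPQ-2), and 230.2 and 71.9 (siSFPQ-3) and lost its call without siCtrl replicate 1 (adjusted p = 0.0636). Of the nearest tested genes of the 12 falls, 10 were lower, 1 was higher and 1 was not called. Among all protein-coding features tested, 23% were lower and 28.4% higher.

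LINC00461 (chr5:88538266-88691041, minus strand) had by far the most reads of any member, and this host of miR-9-2 had fewer of them in every siSFPQ library than in either control. It had 20661 and 20279 normalized reads under siCtrl, 13112 and 10951 under siSFPQ-2, and 11221 and 7181 under siSFPQ-3. The mean went from 20470.2 ± 270.4 (SD, n = 2) to 10616 ± 2484 (SD, n = 4) (log2 fold change -0.98, SE 0.19, adjusted p = 0.00153). Its log2 fold change was -0.77 for siSFPQ-2 and -1.19 for siSFPQ-3. MEF2C, a neuronal and muscle transcription factor gene 26.1 kb away, had 148 and 175 (siCtrl), 111 and 104 (siSFPQ-2), and 119 and 102 (siSFPQ-3) and fell by 0.56 on the log2 scale (adjusted p = 0.0146). In the deposited profiles the later part of the body held 73.7% of the early part in siCtrl and 70.6% in siSFPQ libraries.

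Set per kb of RefSeq span, short loci were the most densely transcribed. This level depends on the span, which may differ from the part of the gene the authors counted. LINC00235 had 707 normalized reads per kb in siCtrl, LINC00602 703, LINC01023 648, LINC02767 597, LINC02340 472, LINC01962 429, LINC01203 388, LINC02776 377, LINC01089 371 and LINC01806 345. Of these 10, 6 fell, 1 rose and 3 did not pass the test, where 23.2% of all features were lower and 24.8% higher. LINC02767 (chr1:207958991-207968142, plus strand) had 5499.9 and 5426 normalized reads under siCtrl, 3157 and 2111 under siSFPQ-2, and 3264 and 2230.1 under siSFPQ-3 (log2 fold change -1.05, SE 0.18, adjusted p = 7.50e-04), and CD34, a surface glycoprotein gene 47.9 kb away, fell by 0.70 on the log2 scale. LINC01089, which overlaps the histone methyltransferase gene SETD1B, had 2768 and 2938 (siCtrl), 2161 and 2085 (siSFPQ-2), and 1894 and 1879 (siSFPQ-3) (log2 fold change -0.51, SE 0.09, adjusted p = 9.94e-04). The small rise of LINC02776, named RC3H1-DT in RefSeq, was 0.35 (adjusted p = 0.0278), and it lost its call without either siCtrl library, without siSFPQ-2 replicate 2 or without siSFPQ-3 replicate 2 (adjusted p 0.0563 to 0.210). LINC01203, LINC01806 and LINC01023 lost theirs without siCtrl replicate 2 (adjusted p = 0.0852, 0.134 and 0.0903), and LINC01203 also without siCtrl replicate 1 (adjusted p = 0.210) or siSFPQ-2 replicate 2 (adjusted p = 0.0565). LINC00235, LINC02340 and LINC01962 had log2 fold changes of -0.20, -0.12 and 0.01. LINC00235 passed the test without siSFPQ-3 replicate 2 (adjusted p = 0.0354).

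Of a list of 25 LINC transcripts that are often studied in tumours, 14 were members. Against the percentages for all features given above, 2 of the 14 were higher (LINC00941 and LINC00973) and 4 lower (LINC00461, LINC00963, LINC00662 and LINC00337), with a median log2 fold change of -0.27. LINC00973 was a member only through siSFPQ libraries, where it is high. LINC00941 (chr12:30795681-30802711, plus strand) had 302 and 270.3 normalized reads under siCtrl, 853 and 878 under siSFPQ-2, and 973 and 1226 under siSFPQ-3 (log2 fold change 1.76, SE 0.11, adjusted p = 1.23e-06). It was above both controls by more than the spread within any group. LINC00963 had 2801 and 2922 (siCtrl), 2349 and 2026 (siSFPQ-2), and 2174 and 2417 (siSFPQ-3) and LINC00662 had 311 and 277 (siCtrl), 225 and 205 (siSFPQ-2), and 232 and 211 (siSFPQ-3), with log2 fold changes of -0.36 and -0.43. Leaving out siCtrl replicate 1 or 2 ended both calls (adjusted p 0.0733 and 0.121 for LINC00963, 0.168 and 0.0582 for LINC00662), and that of LINC00963 also without siSFPQ-2 replicate 2 (adjusted p = 0.0515). The call of LINC00337 (adjusted p = 0.0491) was lost without any library but siSFPQ-3 replicate 1 (adjusted p 0.0556 to 0.294).

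Of the members that start back to back with a coding gene, a smaller share was called higher than among all features. RefSeq spans were found for 447 members, 408 of them by symbol and 39 by an older name, and a strand for 313. Here and in the classes by position and span that follow, members that passed the filter only through siSFPQ libraries were not set apart. Of 42 members that start within 5 kb of a protein-coding gene on the other strand, 5 were higher and 17 lower (11.9% and 40.48%, against 24.8% and 23.2% of all features), with a median log2 fold change of -0.29. Of the other 271 with a strand, 76 were higher and 87 lower (28.0% and 32.1%), with a median of -0.01. Among 107 tested lncRNAs that are no members and have a symbol ending in -DT, for divergent transcript, 14.0% were higher and 23.4% lower. The 5 higher members among the 42 included LINC01137 (chr1:37454879-37474443, minus strand), named LITATS1 in RefSeq, with 161 and 161 normalized reads under siCtrl, 429 and 393 under siSFPQ-2, and 498 and 632 under siSFPQ-3 (log2 fold change 1.57, SE 0.13, adjusted p = 5.25e-06). ZC3H12A, which encodes an RNase that limits inflammatory messages, starts on the other strand 0.137 kb away, and had 1625 and 1634 (siCtrl), 3017 and 3346 (siSFPQ-2), and 2945 and 4291 (siSFPQ-3) and rose by 1.04. Further pairs were picked after their values were seen. LINC01135, named JUN-DT in RefSeq, rose by 0.77 (adjusted p = 6.17e-04) beside JUN, an AP-1 subunit gene, whose log2 fold change was 1.66. Divergent partners did not always move alike. LINC01185, named REL-DT, was at -0.31 and did not pass the test (adjusted p = 0.0706), while REL, a subunit of NF-kappaB, rose by 1.12. LINC00909 fell by 0.33 (adjusted p = 0.0202) while ZNF407, a zinc finger gene, rose by 0.87. LINC01424 fell by 1.48 beside UBE2G2, a ubiquitin-conjugating enzyme gene, whose log2 fold change of -0.23 did not pass the test (adjusted p = 0.0539).

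Of 47 members that overlap a protein-coding gene on either strand, 9 were higher and 18 lower (19.1% and 38.3%, against 24.8% and 23.2% of all features). LINC01715, named TAF12-DT in RefSeq, fell from 328 ± 32.5 (SD, n = 2) to 188 ± 9.26 (SD, n = 4), while TAF12, a subunit of the general factor TFIID, was at -0.13 on the log2 scale (adjusted p = 0.258). LINC01619 rose from 548 ± 18.4 (SD, n = 2) to 1330.4 ± 216 (SD, n = 4), while BTG1, an anti-proliferative gene that it overlaps, had 0.07 (adjusted p = 0.684). The difference between members of such pairs was not tested. Of 97 that start within 50 kb after the end of a coding gene on the same strand, 23 were higher and 31 lower (23.7% and 32.0%), with a median of 0.17, and of the 40 within 10 kb 10 were higher and 11 lower (25% and 27.5%). The shares higher were thus close to that of all features. Of 130 with no protein-coding gene within 50 kb, 39 were higher and 41 lower (30.0% and 31.5%), with a median of -0.02. LINC00887 (-0.89), LINC00923 (-1.12), LINC01670 (-1.16) and LINC02268 were named among these classes as lower.

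**Figure D3:**
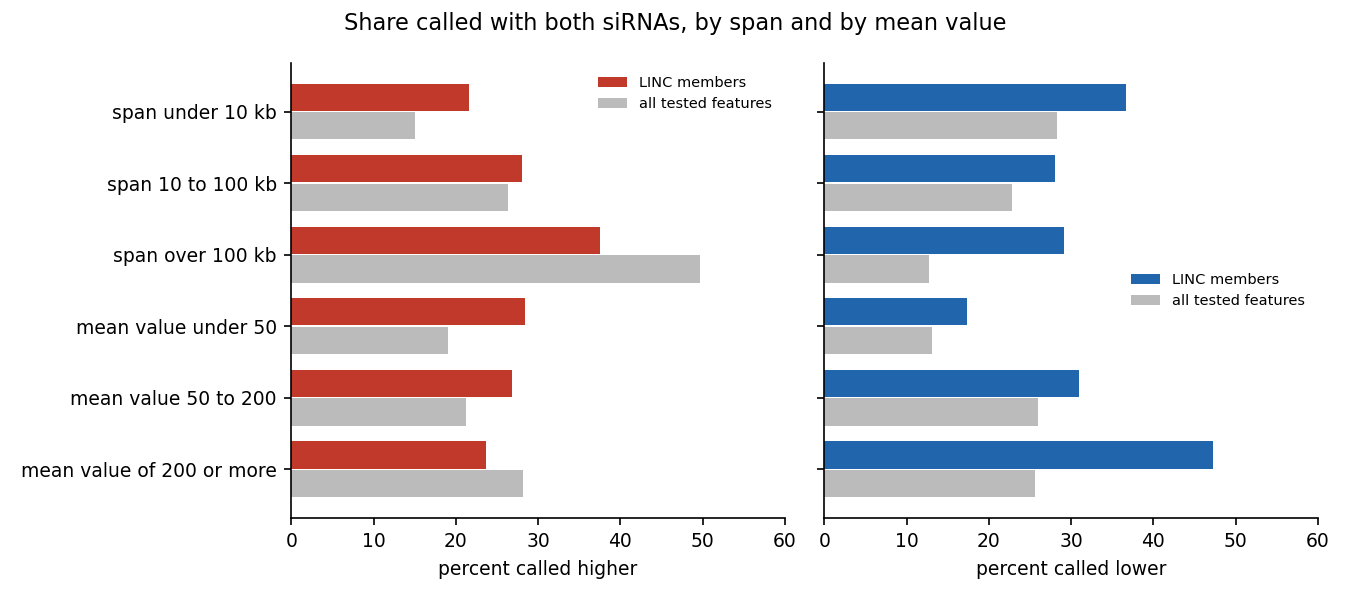
Percent of LINC members (coloured bars) and of all tested features with a single symbol (grey bars) called higher (left) or lower (right), by RefSeq span and by mean normalized reads of the 6 libraries. LINC members over 100 kb were lower in 29.2% and all such features in 12.7%, and members of 200 normalized reads or more were lower in 47.2% and all such features in 25.6%.

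Calls were also counted by span and by level. By span, 43 of 199 members under 10 kb were higher and 73 lower (21.6% and 36.7%), where all features of that span had 15% and 28.3%. From 10 to 100 kb the members had 56 in each direction of 200 (28.0%), and all features 26.4% and 22.8%. Over 100 kb, 18 of 48 members were higher and 14 lower (37.5% and 29.2%), while of 2592 such features 49.7% were higher and 12.7% lower. By mean value over the 6 libraries, a split made after the values were seen, members under 50 normalized reads were higher in 41 and lower in 25 of 144 (28.5% and 17.4%), where all features of that level had 19.0% and 13.2%. Of the 41, however, 20 had passed the filter only through siSFPQ libraries, where they are high, and of the other 118 members of that level 21 were higher (17.8%). From 50 to 200 members were higher in 45 and lower in 52 of 168 (26.8% and 31.0%), against 21.2% and 25.9% of all such features. At 200 or more they were higher in 34 and lower in 68 of 144 (23.6% and 47.2%), against 28.2% and 25.6%. These shares are descriptions, and no test was made of a difference between classes.

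The motifs of the start regions were counted by call. Of 81 higher members with a RefSeq window, 14 held TGANTCA (17.3%), against 9 of 104 lower members (8.65%), 13 of 128 that were not called (10.2%) and 7.72% of all 27305 windows of that length. GGGCGG was in 23 of the higher (28.4%), 55 of the lower (52.9%) and 44.5% of all windows. The median number of CG pairs was 6 in higher members, 14 in lower members and 13 in all windows. TATAAA was in 17.3%, 10.6% and 12%. CCAAT was in 34.6%, 30.8% and 35.7%, CACGTG in 7.41%, 10.6% and 7.41%, TGACGTCA in 1.23%, 0.962% and 1.97%, TGTGGT in 9.88%, 15.4% and 13.2%, and GGAATG in 17.3%, 16.3% and 14.1%. Of the 12 largest falls, however, 8 of the 10 with a window held under 10 CG pairs, as did 7 of 8 among the 12 largest rises. A match is a description of the letters and not a bound site. Higher members that passed the filter only through siSFPQ libraries were not set apart in these shares.

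Members and their nearest coding genes often changed in the same direction. Within 50 kb, 73 higher members had a tested protein-coding neighbour, which was higher for 37 (50.7%) and lower for 9. Higher members that passed the filter only through siSFPQ libraries, such as LINC01154, LINC00973 and LINC02608, are in this count and were not set apart. The 92 lower members had a lower neighbour for 43 (46.7%) and a higher one for 14. Of the 123 members not called, 34.1% had a higher neighbour and 13.8% a lower one. Among protein-coding genes with a nearest coding gene within 50 kb, 38.4% of higher genes had a higher neighbour and 37.6% of lower genes a lower one. Across the 288 members, the 2 log2 fold changes had a Pearson correlation of 0.42 and a Spearman correlation of 0.41. Beyond 50 kb they were 0.31 and 0.22 over 159 members, and for 11295 pairs of coding genes within 50 kb 0.26 and 0.27. These points share their libraries, neighbours can share reads where they overlap, and members are not independent of each other. LINC01934, LINC02109 and LINC01619, described above, were changed while their nearest coding gene was not called or moved the other way.

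**Figure D4:**
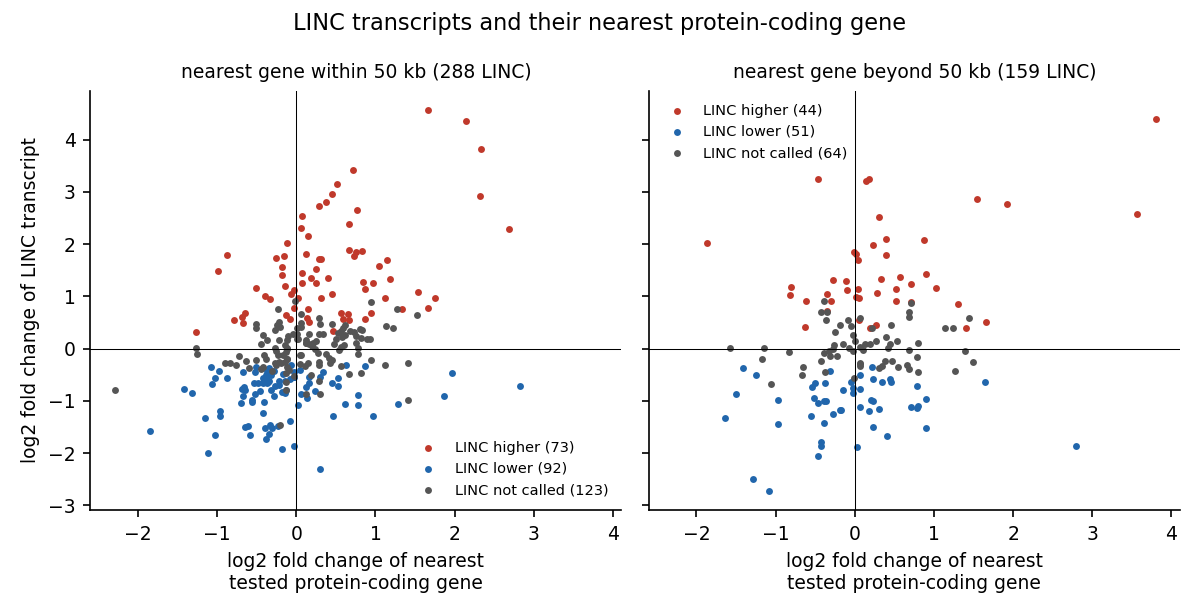
Log2 fold change of each LINC member (vertical axis) against that of its nearest tested protein-coding gene (horizontal axis), for 288 members within 50 kb (left) and 159 beyond (right), coloured by the call of the member. Within 50 kb, 37 of 73 higher members had a higher neighbour and 43 of 92 lower members a lower one. The higher members include some that passed the filter only through siSFPQ libraries.

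The weight of the start region in the nascent signal overlapped between the groups over all LINC loci, but not within some classes of them. All 456 members had a deposited profile, and 447 had signal in the body after its first 10% in all 6 libraries. In these 447 the first 10% held a median of 281 and 264% (siCtrl), 279 and 294% (siSFPQ-2), and 264 and 275% (siSFPQ-3) of the mean signal of the rest. Over all features that met the same condition the ratio was 348 and 361% in siCtrl and 284 to 320% in the siSFPQ libraries. The groups did not overlap there, and the siSFPQ libraries were the lower. The classes of members that follow were looked at after the values were seen. For the 142 lower members that met the condition the ratio was 240.2 and 239% in siCtrl and 247 to 255% in siSFPQ libraries. For the 117 higher members it was 239 and 225% against 246 to 260.5%, and for the 198 members of 10 to 100 kb 318 and 306% against 329 to 349%. In these classes the siSFPQ libraries were the higher. For the 94 members within 50 kb after a coding gene they were the lower, with 311 and 303% against 220.3 to 286%. In the other classes looked at the groups overlapped. These were members not called, divergent or not divergent, not within 50 kb after a coding gene, under 10 kb, and over 100 kb. Signal before the start was 143 ± 3.68% (SD, n = 2) of that in the body in siCtrl and 151 ± 6.96% (SD, n = 4) in siSFPQ libraries. How the profiles treat strand, scale and bin size was not given in the sources used here. For these ratios the body was taken as the middle 300 of 500 bins. After the end, LINC members kept 41.7 ± 0.294% of the body signal in siCtrl, against 67.9 ± 3.59% for all features. The late part of the body held 63.5 ± 0.788% of the early part, against 81.5 ± 2.69%, and 62.1 ± 0.543% in siSFPQ libraries (n = 4). For this ratio 439 members had signal in the early part in every library. The last ratio and those over all features were added after the values were seen.

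**Figure D5:**
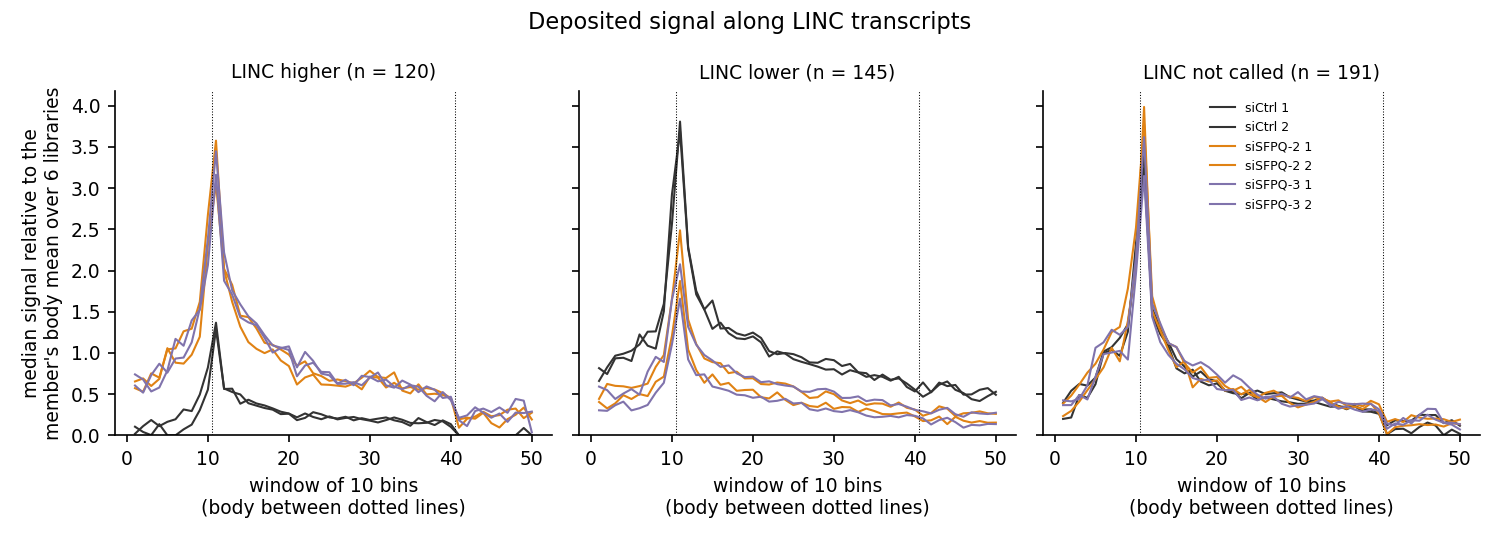
Median signal of the deposited profiles in windows of 10 bins, relative to each member's mean body signal over the 6 libraries, for LINC members called higher (120), lower (145) or not called (191), with 1 line per library. The start lies at the first dotted line, and in the called classes the siCtrl lines are set apart from the siSFPQ lines over the whole body. The classes were called from the same libraries, so a gap in level follows from the calls.

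Each siRNA gave calls in both directions. Under siSFPQ-2, 106 members were higher and 113 lower (of all features 21.2% and 17.9%, and 39.2% in either direction). Under siSFPQ-3 there were 117 in each direction (of all features 23% and 20.4%, and 43.4% in either direction). Both comparisons share the siCtrl libraries. A set of 92 members was higher with each siRNA and 85 were lower with each (18.5% and 14% of all features), and no member was called in opposite directions. The lower count with siSFPQ-2 was smaller without either siCtrl library and without siSFPQ-2 replicate 2. That with siSFPQ-3 was smaller without either siCtrl library. The counts over all features in these fits were not set beside them. Tested directly, siSFPQ-3 against siSFPQ-2 gave 0 members by limma, where 0.0781% of all features were higher, 0.023% lower and 0.101% either. At an unadjusted p under 0.05, 67 members differed (14.7%, against 12.5% of all features), 36 higher and 31 lower with siSFPQ-3. edgeR called 1 higher and 0 lower, DESeq2 5 higher and 2 lower, and limma with the replicate number as a block 11 higher and 9 lower. Without siSFPQ-2 replicate 1 or siSFPQ-3 replicate 1 limma also called members in both directions. The shares of all features called by these other tools and fits were not set beside these counts. They are therefore not read as a result about the members. The quartiles of the log2 differences were -0.19 and 0.28, so differences between the siRNAs were small beside those from siCtrl, which does not show that the siRNAs act alike.

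The authors' deposited table called 107 members higher and 115 lower at its adjusted p under 0.05. All of these were called in the same direction here. The authors' profile classes placed 100 members in the class named up, of which 98 were higher here, 95 in the class named down, of which 94 were lower, and 261 in the class named ns, of which 22 were higher and 51 lower.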

How the data were processed

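PRO-seq was analysed in 6 libraries of SBC-3 cells (siCtrl, siSFPQ-2 and siSFPQ-3, 2 each). The authors deposited a signal per feature, as normalized reads per library, with their own log2 fold change and adjusted p-value, used here for the last comparison alone. Signal in 500 bins per feature was also deposited for each library. The submitters' processing notes name DESeq2 1.38.1, Bowtie2, SAMtools 1.3.1, cutadapt 1.14 and UMI-tools, with builds hg38 and dm6. Their roles, the annotation, the part of the gene counted and the use of strand were not given in the sources used here. If total transcription changed, scaling may have removed that. Every deposited value was a whole multiple of 1 read (100% at a tolerance of 0.1 reads), so whole reads were recovered: 12072813 to 18475158 per library, which bounds the precision of members of few reads.

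After 240 repeated lines were dropped, features with 10 or more in at least 2 libraries entered a test of log2(value + 1) in limma 3.58.1 (trend option, R 4.3.3, 3 groups in a single fit), adjusted by the Benjamini-Hochberg method over 21773 features at 0.05. Other pseudocounts, filters and scalings, a fit without the trend option, edgeR 4.0.16 and DESeq2 1.42.0 on recovered reads, a replicate block and each library left out were alternatives. The fit was tested on simulated data. The libraries of a group differed beyond sampling noise (chi-square per degree of freedom 11.1 to 24.3).

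The members and lists were chosen with earlier results of these data known. Among members, the rule for names took the 12 largest rises and falls past the threshold with the same sign for each siRNA, groups that did not overlap and at least the median level, the 10 highest per kb, up to 2 per direction and context class by smallest p, up to 4 per direction of the studied list, and nearest coding genes. LINC02695, the divergent LINC01135, LINC01185 and LINC00909, and the members at the threshold were named after their values were seen, as were the levels by mean value, the printed start regions, the correlations of neighbours and the counts of 1.5-fold changes. Spans, strands and sequences came from RefSeq tables of GRCh38.p14. 9 members had no match.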

Additional observations from a re-analysis of the deposited data

How the results depend on the processing

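With both siRNAs, the count of higher members was 89 to 125 and that of lower members 75 to 151 when a library was left out. With siSFPQ-2 the lower count was 52 to 136 and with siSFPQ-3 59 to 123. In these fits fewer samples carry the spread, and a group left with 1 library is assumed to vary like the others. The counts over all features were not set beside them, so they are not read as particular to the members. Between the siRNAs, leaving out a library gave 0 to 2 higher and 0 to 10 lower members. There edgeR called 1 higher, DESeq2 5 higher and 2 lower, and the replicate block 11 higher and 9 lower, against 0 by limma. The shares of all features called there were not set beside these counts, and the cause was not tested. With both siRNAs the replicate block gave 135 higher and 158 lower. The replicate numbers were not taken to pair the libraries, since the correlations of deviations were 0.0529 and 0.0587 between siCtrl and siSFPQ-2 or siSFPQ-3, although 0.382 between the siSFPQ groups. The other settings kept these counts within 1.5 times. LINC01962, at 0.01, became -0.025 with libraries scaled to the same total and was -0.059 to 0.086 when a library was left out, never called. Among named members, DESeq2 ended the calls of LINC02776, LINC01203 and LINC00337 (adjusted p = 0.0771, 0.163 and 0.160) and limma without the trend option those of LINC00963 and LINC01203 (adjusted p = 0.0556 and 0.113). LINC00337 was also lost with a pseudocount of 0.1, without the filter and under both scalings (adjusted p 0.0502 to 0.0610). edgeR ended no named call. Signal before the start was 167% (siCtrl) and 174% (siSFPQ) of the body over the 50 bins nearest the start, and 419% and 408% as a mean over members, which follows members with little body signal. Depth limits members of few reads, as 1 read is worth up to 1.11.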
